A study of Mus musculus with 18 samples.

Results

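Differentiation of 3T3-L1 cells labelled as lacking MLKL was examined by RNA sequencing. The comparison sets 3 differentiated libraries (J7_MLKL) against 3 undifferentiated libraries (J0_MLKL), 6 of the 18 libraries of the series, with groups taken from sample titles and column names. 3T3-L1 is a mouse fibroblast line whose cells can become fat cells in culture. J0_MLKL is labelled MLKL-/- and untreated, and J7_MLKL is titled MLKL, labelled as differentiated cells and carries RIPK3-/- in its genotype field, so J7_MLKL is to be read as the name in the title. The control line (CTL) and the line titled RIPK3, each with 3 libraries at J0 and 3 at J7, serve only to show where the change in MLKL-/- cells differs. In the 3 J7_RIPK3 libraries the genotype field likewise names the other knockout. The labels do not say how the lines were made or whether a line is a single clone, which limits each line as a model of its genotype. The deposited tables list genes only where the authors found a difference, and 3226 of the 15194 genes in the joined tables have counts in all 6 MLKL libraries.

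Adipogenesis is driven by the nuclear receptor PPARG and the factor C/EBPA, which switch on the genes for fatty acid uptake, triglyceride synthesis, lipid droplets and adipokines while progenitor and matrix genes are turned down. MLKL is the pseudokinase that breaches the plasma membrane in necroptosis, an inflammatory form of cell death, after phosphorylation by RIPK3. Type I interferon acts through a receptor and transcription factors such as IRF9, which bind a DNA element in the promoters of antiviral genes, and fibroblasts and adipocytes both respond to it.

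Antiviral genes rose with differentiation in the MLKL-/- cells, and 6 of their promoters are shown because they carry the letters of that element. The promoters are from RefSeq (build GRCm38.p6), read 5′ to 3′ on the strand of the gene, each as 120 bases that end before the annotated start. Capitals mark matches to the core of the interferon-stimulated response element, a pair of GAAA with NN (any bases) between them, on either strand, and overlapping matches run together.
Rsad2 (chr12:26456508-26456627, reverse strand): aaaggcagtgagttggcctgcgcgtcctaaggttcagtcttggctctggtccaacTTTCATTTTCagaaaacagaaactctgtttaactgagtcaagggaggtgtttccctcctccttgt
Oas1a (chr5:120907526-120907645, reverse strand): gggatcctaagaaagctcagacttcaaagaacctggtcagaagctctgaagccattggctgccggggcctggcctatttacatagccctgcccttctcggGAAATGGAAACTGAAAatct
Ifit3 (chr19:34583352-34583471, forward strand): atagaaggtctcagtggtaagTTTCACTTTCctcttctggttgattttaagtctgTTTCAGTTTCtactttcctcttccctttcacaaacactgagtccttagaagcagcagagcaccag
Ifit1 (chr19:34640749-34640868, forward strand): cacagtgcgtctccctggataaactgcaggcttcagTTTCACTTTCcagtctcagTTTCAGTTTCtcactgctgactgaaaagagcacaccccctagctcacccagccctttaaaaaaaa
Isg15 (chr4:156200820-156200939, reverse strand): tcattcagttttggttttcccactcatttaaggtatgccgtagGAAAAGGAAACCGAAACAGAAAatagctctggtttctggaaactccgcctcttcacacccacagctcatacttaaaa
Ddx60 (chr8:61927967-61928086, forward strand): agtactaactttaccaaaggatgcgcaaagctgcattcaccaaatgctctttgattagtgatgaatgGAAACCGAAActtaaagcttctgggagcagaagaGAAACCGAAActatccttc
The core stands 1 time in the Rsad2 window, 2 times in those of Oas1a, Ifit3, Ifit1 and Ddx60, and in 3 overlapping copies in that of Isg15. RefSeq promoters of 300 bases (250 before and 50 after the start) were found for 21 of the 34 interferon-stimulated genes that rose, and 13 of the 21 (61.9%) hold the core. Over all 32851 promoters the share was 3.44%, over matched genes called higher 5.8% (44 of 759), and over matched genes called lower 3.32% (23 of 693). The 759 include the 21 interferon-stimulated genes, and the 44 include their 13. The list was drawn up as interferon-stimulated genes, so its share is not a test of their rise at J7. Shares of genes count a gene once if any of its promoters holds the letters. The share over all promoters counts each promoter of 27025 genes, so the units differ. Fewer than 80% of the 34 genes had a matched promoter, so a check over the whole group is void and the share describes the matched genes only. Of 16 matched adipocyte marker, lipid droplet and lipolysis genes that rose, 0 hold the core. Of the same genes, 0 hold a pair of AGGTCA with N between them, the letters of a PPAR response element. Those letters occur in 0.0396% of all promoters. The CCAAT box stands in 38.1% of the interferon-stimulated and 31.2% of the adipocyte genes, and in 37.4% of all promoters. Among matched genes called higher it stands in 46%, and among those called lower in 45.3%. Matches were counted on both strands, and a match is a description of letters and not a binding site. The window printed for Ifit3 is the same in its near-identical copy Ifit3b, and Oas1a and Oas1g are also close copies, so the split of reads within each pair is uncertain.

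The targeted gene was read first. Levels are counts per 1000000 reads of the whole library (CPM), adjusted p-values are from edgeR's quasi-likelihood test, and genes under an adjusted p of 0.05 are called. Mlkl stood at 7.24, 9.72 and 7.19 CPM at J0 and 13.9, 16.4 and 15.02 CPM at J7, while it was between 18.2 and 19.8 CPM in J0_CTL, between 25.4 and 27.5 in J7_CTL and between 26.5 and 32.3 in J7_RIPK3. Mlkl RNA was therefore lower in both MLKL groups than in CTL at the same time point, without overlap, and it was still read in all 6 libraries. With differentiation it rose 1.85-fold (log2 change 0.87 ± 0.16, adjusted p = 0.00391). Ripk3, the upstream kinase, stood at 5.73, 9.44 and 7.19 CPM at J0 and 7.73, 7.97 and 11.99 CPM at J7, and its libraries overlapped (adjusted p = 0.379). Ripk3 was between 16.8 and 19.6 CPM in J0_CTL and between 17.5 and 19.2 in J7_CTL, so it too was lower in both MLKL groups than in CTL, without overlap. In the RIPK3 line Ripk3 was between 14.7 and 17.3 CPM at J0 and between 10.2 and 11.7 CPM at J7. Its levels in J7_MLKL and J7_RIPK3 overlapped. The sources used here do not give the edited position, so a gene-level read count does not test the edit.

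Library totals were 21.7 to 28.4 M reads in the 6 libraries and 20.2 to 36.9 M over all 18. The genes with counts in all 6 hold 24.5 to 25.4% of J0_MLKL and 24.5 to 24.8% of J7_MLKL reads. J7_MLKL 3 and J0_MLKL 2 stood apart from the other libraries of their groups. Over 2815 genes with at least 1 CPM, J7_MLKL 3 relative to the mean of J7_MLKL 1 and 2 was higher by a median log2 of 0.60 in the shortest of 5 length bins of genes (65 to 2363 bases) and lower, at -0.47, in the longest bin (6670 to 41324 bases). The Spearman coefficient with gene length was -0.55 across genes, which share their libraries and are not replicates, against -0.01 for J7_MLKL 2 over J7_MLKL 1. J0_MLKL 2 had medians of 0.33 and -0.26 in the same bins and a coefficient of -0.54 over 2697 genes. Both libraries thus had more reads from short and fewer from long genes, and the median change between J7 and J0 was 0.41 in the shortest and -0.09 in the longest bin with all 6 libraries, and 0.31 and -0.06 without those 2. Its part in the results was not tested. Where leaving out those 2 ended a call or moved a called fold by over 1.5 times, the value without them is given.

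**Figure D1:**
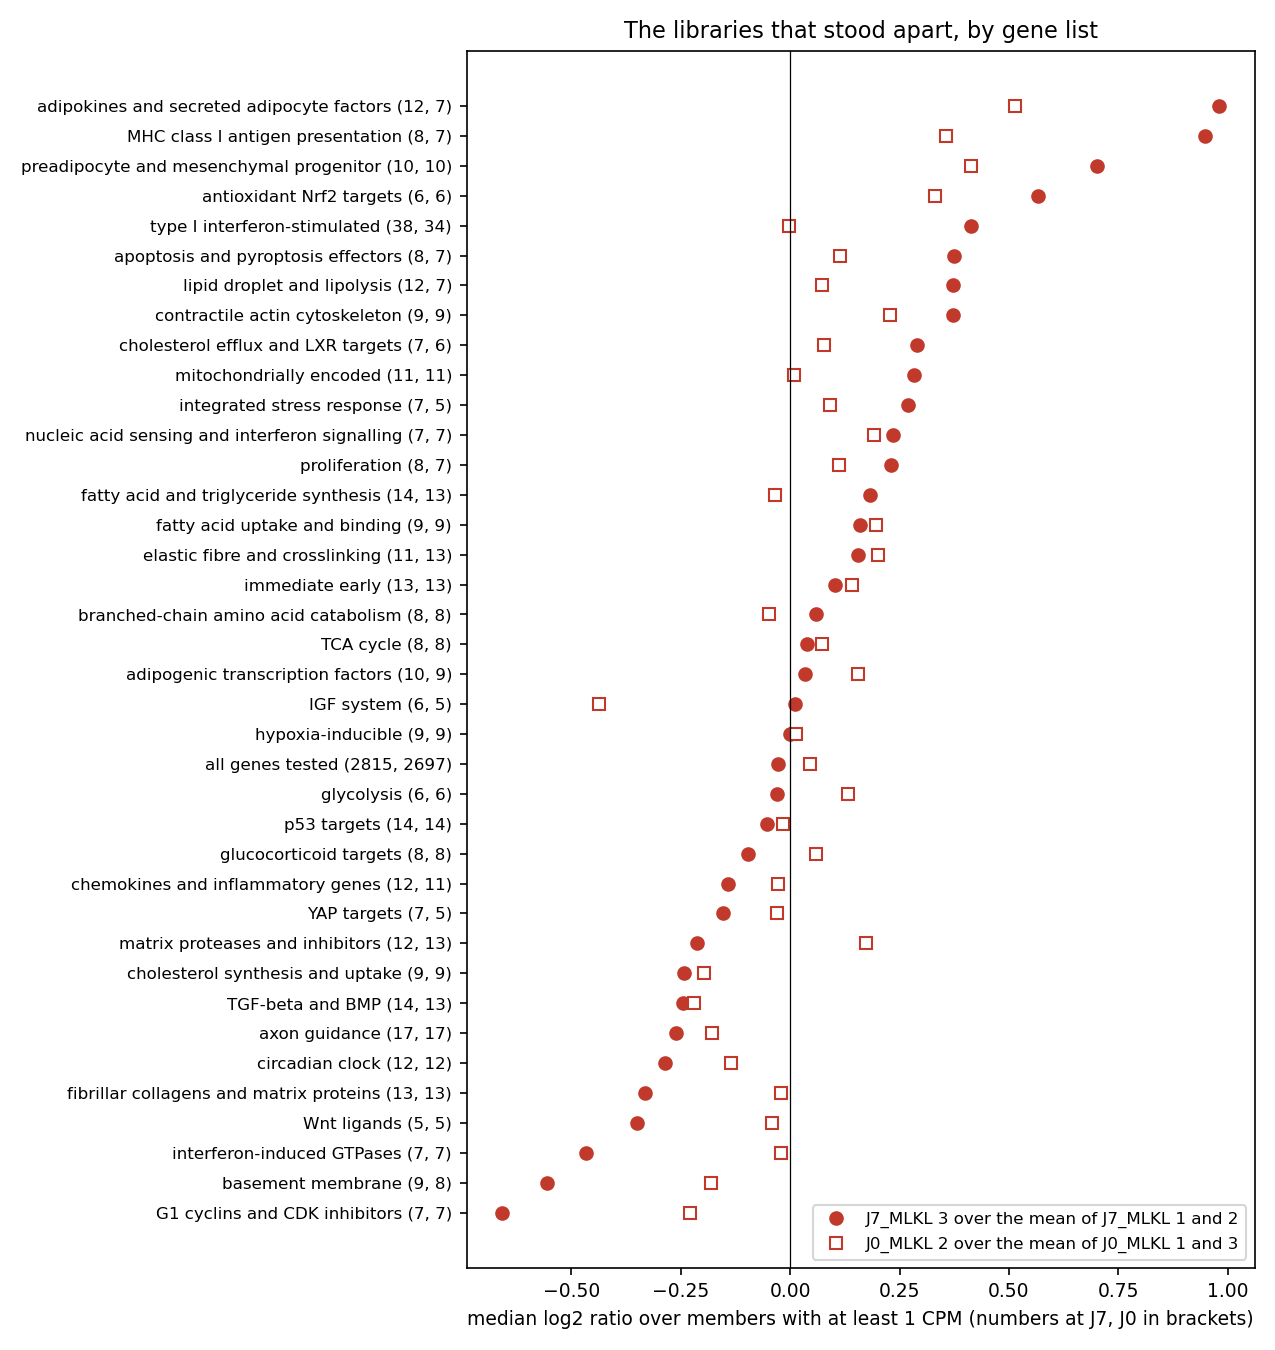
Median log2 ratio, per gene list, of J7_MLKL 3 over the mean of J7_MLKL 1 and 2 (filled circles) and of J0_MLKL 2 over the mean of J0_MLKL 1 and 3 (open squares), over members with at least 1 CPM; the numbers of members at J7 and J0 are in brackets. Lists with at least 5 such members at both times are shown, marker lists left out. Of the lists shown, adipokines were highest in J7_MLKL 3 (0.98), G1 cyclins and CDK inhibitors lowest (-0.66), and the median of all genes lay near 0.

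Of 3075 genes tested, 1102 (35.8%) were called higher and 949 (30.9%) lower at J7, 66.7% in all, with a median log2 change of 0.03. These shares are a background raised by the selection of genes: a gene reached the test through the authors' own call in this comparison, or through differences from CTL at both time points. The authors' deposited table of this comparison lists 1891 of the 15194 joined genes, 7.08% higher and 5.37% lower. Without J7_MLKL 3 and J0_MLKL 2, 1300 genes were higher and 1246 lower. The authors' deposited tables of terms place fat cell differentiation first among gene ontology processes, with 48 of 64 listed genes higher and an adjusted p of 7.79e-13, and the PPAR signaling pathway first among pathways, with 26 of 29 higher and an adjusted p of 2.59e-07.

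The change was smaller in MLKL-/- cells than in control cells for most of these genes. Over 3033 genes with counts in all 12 libraries of both lines, the median absolute log2 change was 0.755 in MLKL-/- and 1.49 in CTL, and 75.4% of the genes changed more in CTL. The change itself differed between the lines for 1981 genes (65.3%), in 1184 (39.0%) towards a higher value in MLKL-/- and in 797 (26.3%) towards a lower. That split depends on the scaling: with DESeq2 size factors, which move the median difference from 0.30 to -0.01, it was 963 to 1012. Of the called differences, 416 were of genes whose fitted change was above 0 in MLKL-/- and below 0 in CTL, and 222 were the reverse. Against the RIPK3 line 1993 of 2851 genes (69.9%) differed, 1138 (39.9%) higher and 855 (30.0%) lower, or 989 and 1030 with DESeq2 size factors. The MLKL libraries are shared by both of these comparisons. Genes entered them only through calls of the authors. Of the 3226 genes with counts in all 6 MLKL libraries, 1335 entered only through differences from CTL at both time points. The shares that changed more in CTL or differed are therefore affected by this selection and are not shares of all genes.

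**Figure D2:**
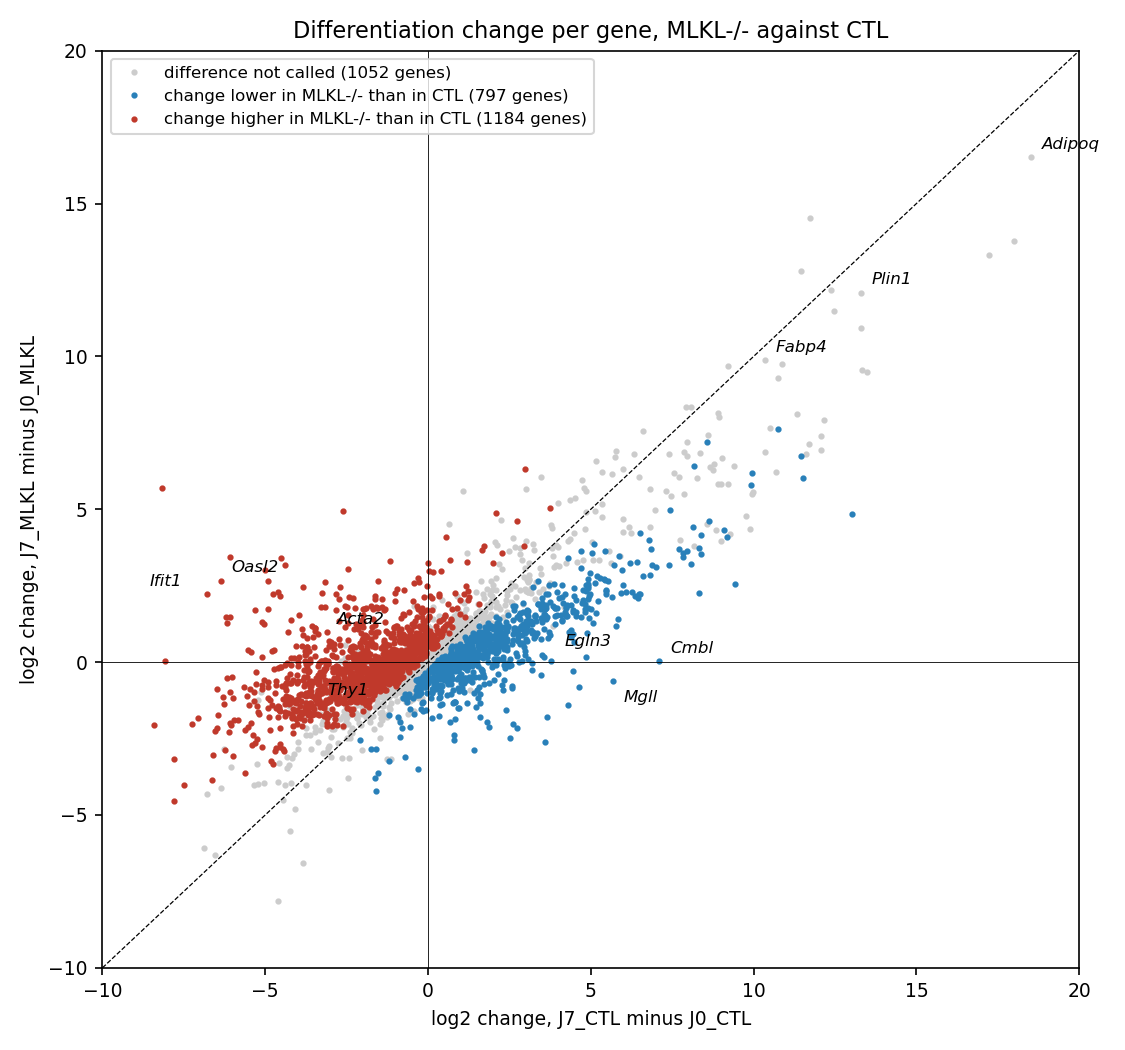
Log2 change from J0 to J7 in CTL (horizontal) and in MLKL-/- cells (vertical) for 3033 genes; colours give the call of the difference and the dashed line marks equal change. Most red points lie left of and above the line with negative changes in CTL, most blue points lie below it with positive changes in CTL, and Ifit1 and Oasl2 lie in the upper left quadrant.

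Adipocyte genes rose in the MLKL-/- cells. All 14 adipocyte markers were called higher, also under every alternative setting and without the 2 libraries that stood apart, and their summed level was between 437 and 538 CPM at J0 and between 4194 and 6758 CPM at J7. Among 10 progenitor markers, 5 had counts in all 6 libraries (Thy1, Ly6a, Cd34, Gata2 and Twist1), with sums of 397 to 526 CPM at J0 and 228 to 333 at J7. Of 8 macrophage and leukocyte markers Cd14 and Aif1 are listed, together 13.8 to 20.8 CPM at J0 and 36.2 to 62.8 at J7, while the pan-leukocyte gene Ptprc and the macrophage gene Adgre1 are not listed for all 6 libraries. Cd14 was called higher and Aif1 was not called, so the sum does not describe both genes. The tables list only genes with a called difference, so a gene that is not listed has an unknown level, not 0. Of 8 muscle markers 2 are listed for all 6 (Des and Acta1, summing to 12.8 to 29.9 CPM at J7), of 6 chondrocyte markers 2 (Sox9 and Comp, summing to 193 to 227 CPM at J0 and 111 to 143 at J7), of 6 epithelial markers 1 (Krt18, at most 0.757 CPM), and of endothelial and osteoblast markers 0. Sox9 was called lower (log2 change -0.90, adjusted p = 0.00349 in edgeR's test) and Comp higher (0.70, adjusted p = 0.042). The call of Comp was lost without J0_MLKL 1, J0_MLKL 3, J7_MLKL 2 or J7_MLKL 3. Acta1 was called higher and Des was not called. The part of these levels in the results was not tested. In bulk RNA, fewer cells of a type and less RNA per cell cannot be told apart.

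Among the adipogenic factors, 11 of 19 were tested, 9 were higher and 0 lower. Pparg, the master receptor of adipogenesis, stood at 21.99, 22.4 and 17.1 CPM at J0 and 57.1, 67.3 and 89.3 CPM at J7. The groups did not overlap, J7_MLKL 3 was the highest library, and the level rose 3.49-fold (log2 change 1.77 ± 0.20, adjusted p = 0.000731; 1.61 without the 2 libraries). In CTL, Pparg stood between 25.6 and 27.4 CPM at J0 and between 487 and 499 CPM at J7, a fitted log2 change of 4.22 against 1.78 in MLKL-/- cells (difference, MLKL-/- minus CTL, -2.45 ± 0.21, adjusted p = 1.41e-06). Cebpa, its partner in holding the adipocyte state, stood at 10.1, 13.1 and 10.9 CPM at J0 and 24.8, 35.3 and 47.2 CPM at J7 and rose 3.13-fold (1.63 ± 0.26, adjusted p = 0.0021, and 1.44 without the 2 libraries), against 4.56 in CTL (difference -2.93 ± 0.27, adjusted p = 2.35e-06). The liver X receptor gene Nr1h3 rose 6.56-fold and the lipogenic factor gene Srebf1 1.58-fold (adjusted p = 0.00124 and 0.00304). Klf15, which acts in adipocyte metabolism, had 1 read at J0 and 1.70, 1.15 and 3.14 CPM at J7. Klf5, an early adipogenic factor, stood at 7.46, 5.67 and 5.18 CPM at J0 and 20.6, 20.5 and 13.4 CPM at J7 and was the member whose difference from CTL was called higher, at 1.03 ± 0.25 (adjusted p = 0.0036). Rxra, the partner of PPARG in its dimer, stood at 194, 192 and 196 CPM at J0 and 223, 219 and 196 CPM at J7 and was not called (adjusted p = 0.342), nor was Ebf2 (adjusted p = 0.651). Cebpb, Cebpd and the proliferation gene Mki67 are not listed for all 6 libraries and were not analysed here. Over the 11 tested factors the difference from CTL was called lower in 6 and higher in 1.

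**Figure D3:**
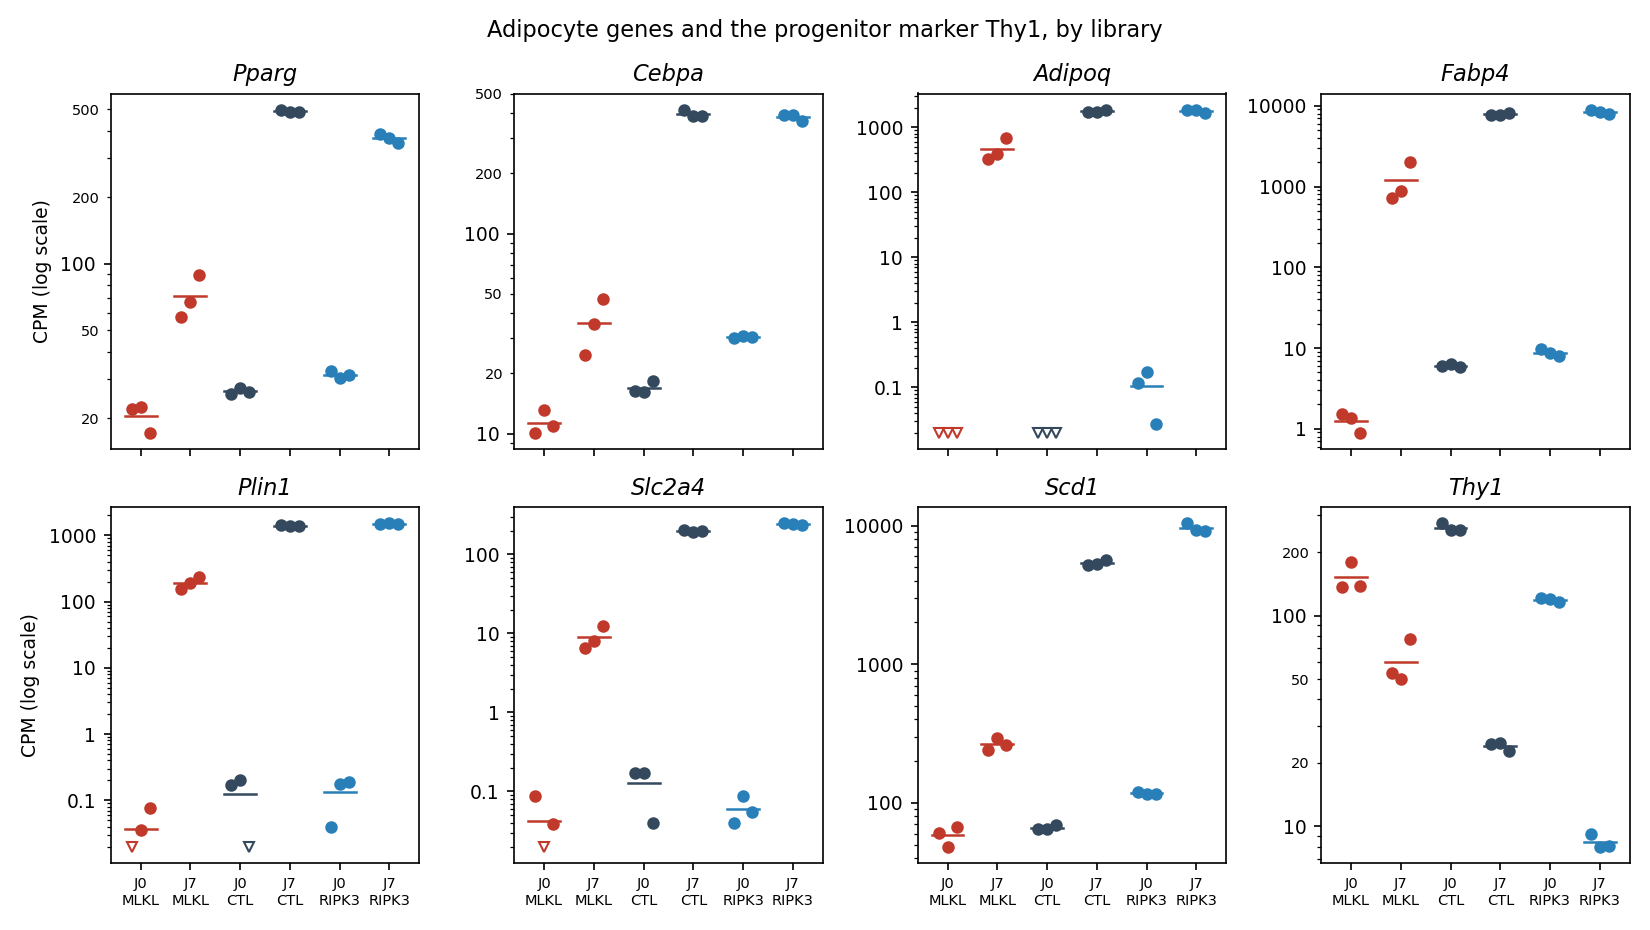
Level of 7 adipocyte genes and of the progenitor marker Thy1 in every library (CPM, log scale), with group means as bars; red is MLKL-/-, dark grey CTL and blue RIPK3, J0 left and J7 right of each pair, and open triangles at 0.02 are libraries with 0 reads. J7_MLKL lies above J0_MLKL in all 7 adipocyte genes and below J7_CTL and J7_RIPK3, with J7_MLKL 3 the highest of its group for Pparg, Cebpa, Adipoq, Fabp4, Plin1 and Slc2a4.

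Most of the tested genes of secreted adipocyte products rose. Of 17 members of the list, 12 were tested, 11 rose and 0 fell. Adipoq, the gene of adiponectin, had 0 reads in all J0_MLKL libraries and 320.1, 384 and 684 CPM at J7, at least 12101-fold higher with J0 set to 3 reads in all. Retn, the gene of resistin, had 0 reads at J0 and 9.50, 16.2 and 42.7 CPM at J7, at least 603-fold higher. Cfd, the gene of the serum protease adipsin, had 2 reads at J0 and 225, 276 and 817 CPM at J7. In all 3 genes the third J7 library was the highest, and their lengths, 1381, 1579 and 922 bases, lie in the shortest bin. Without the 2 libraries the log2 change of Cfd went from 13.78 to 12.35 and that of Retn from 12.16 to 11.24, and both were still called. Hp, the gene of haptoglobin, stood at 3.23, 5.07 and 2.97 CPM at J0 and 28.1, 38.7 and 66.9 CPM at J7 and rose 11.8-fold (3.54 ± 0.40, adjusted p = 0.000669). Angptl4, a secreted inhibitor of lipoprotein lipase, stood at 85.98, 121 and 79.2 CPM at J0 and 102, 95.9 and 159 CPM at J7 and was not called (adjusted p = 0.333), while in CTL its fitted change was 2.70 (difference -2.41 ± 0.27, adjusted p = 1.30e-05). Nampt, the gene of an NAD-synthesising enzyme, showed little spread at 51.8, 53.5 and 54.4 CPM at J0 and 154, 162 and 143 CPM at J7 and rose 2.86-fold (adjusted p = 8.52e-05).

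Genes of fatty acid uptake rose as well: of 13 members, 10 were tested, 8 rose and 1 fell. Lpl, the lipase that frees fatty acids from circulating lipoproteins, was already expressed at J0 and stood at 462, 363 and 478 CPM at J0 and 2128, 2182 and 1685 CPM at J7. It rose 4.61-fold (2.17 ± 0.16, adjusted p = 0.000188), while the control line stood between 240.0 and 247 CPM at J0 and between 7238 and 7549 CPM at J7 (difference -2.76 ± 0.16, adjusted p = 6.43e-08). Acsl1, which activates fatty acids to acyl-CoA, stood at 19.3, 17.02 and 20.6 CPM at J0 and 231, 306 and 218 CPM at J7 and rose 13.1-fold (3.70 ± 0.17, adjusted p = 4.93e-05), against a fitted change of 7.71 in CTL (difference -4.01 ± 0.18, adjusted p = 1.13e-08). For Fabp4, the fatty acid binding protein gene, no difference was called: its fitted change was 9.89 against 10.34 (difference -0.46 ± 0.53, adjusted p = 0.463). Its J7 levels lay between 723 and 2018 CPM in MLKL-/- and between 7634 and 8109 CPM in CTL, and its J0 levels between 0.889 and 1.51 and between 5.85 and 6.38 CPM. The log2 change of Fabp4 was 9.34 without the 2 libraries. Cav1, the gene of caveolin-1, stood at 368, 389.7 and 381 CPM at J0 and 417, 420.1 and 408 CPM at J7 and was not called (adjusted p = 0.302), against a change of 2.02 in CTL. Gpihbp1, which anchors lipoprotein lipase to capillaries, fell 2.67-fold (adjusted p = 0.00351).

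In the lipid droplet and lipolysis list, 12 of 18 members were tested, 10 rose and 0 fell. Plin1, the droplet coat protein gene, had 3 reads at J0 and 154, 189 and 236 CPM at J7, a ratio of 4991-fold (95% interval 1707 to 24204). Its log2 change of 12.08 was 12.93 without J0_MLKL 3. Plin4, another coat protein gene, was already expressed, at 142, 124 and 144 CPM at J0 and 459, 474 and 406 CPM at J7, and rose 3.27-fold (adjusted p = 0.000134). The 3 enzymes of lipolysis did not move alike. Pnpla2, encoding adipose triglyceride lipase, stood at 11.2, 20.4 and 14.7 CPM at J0 and 199.8, 241 and 443 CPM at J7 and rose 19.02-fold (4.23 ± 0.40, adjusted p = 0.000387, and 4.02 without the 2 libraries). Lipe, encoding hormone-sensitive lipase, stood at 16.2, 16.8 and 15.7 CPM at J0 and 128, 151 and 268 CPM at J7 and rose 11.4-fold (3.46 ± 0.31, adjusted p = 0.000318, and 3.06 without the 2 libraries). Mgll, encoding monoglyceride lipase, which completes the breakdown, stood at 1.81, 1.66 and 1.74 CPM at J0 and 1.04, 1.70 and 0.719 CPM at J7, with overlapping libraries and no call (adjusted p = 0.133). In CTL Mgll stood between 0.517 and 0.789 CPM at J0 and between 29.5 and 33.1 CPM at J7 and in RIPK3 between 0.523 and 0.893 CPM at J0 and between 73.7 and 85.1 CPM at J7, and the changes differed by -6.30 ± 0.36 (adjusted p = 4.63e-08) and -7.52 ± 0.36 (adjusted p = 9.40e-09). Of the 12 members tested against CTL, 7 differences were lower and 0 higher. G0s2, the inhibitor of adipose triglyceride lipase, rose from levels between 0.0862 and 0.388 CPM at J0 to levels between 11.6 and 40.7 CPM at J7; its log2 change was 6.02 without J7_MLKL 3, 7.69 without J0_MLKL 2 and 6.76 with all 6.

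Most synthesis genes rose. Of 22 members for fatty acid and triglyceride synthesis, 15 were tested, 13 rose and 2 fell, with a median log2 change of 1.09. Fasn, the fatty acid synthase gene, stood at 181, 147 and 176 CPM at J0 and 360.0, 408 and 333 CPM at J7 and rose 2.19-fold (1.09 ± 0.13, adjusted p = 0.000769), where CTL changed by 2.83 (difference -1.73 ± 0.13, adjusted p = 4.68e-07). Scd1, the desaturase that makes monounsaturated fatty acids, stood at 60.4, 48.4 and 66.5 CPM at J0 and 241, 294 and 262 CPM at J7 and rose 4.55-fold; in CTL it stood between 64.3 and 69.02 CPM at J0 and between 5202 and 5639 CPM at J7, and the changes differed by -4.20 ± 0.16 (adjusted p = 3.66e-09). Gpd1, which supplies glycerol 3-phosphate, rose from levels between 1.34 and 1.41 CPM at J0 to levels between 198 and 391 CPM at J7 (204-fold, adjusted p = 4.93e-05). Dgat2, which adds the last fatty acid to triglyceride, stood at 5.09, 4.93 and 5.02 CPM at J0 and 21.6, 26.6 and 47.3 CPM at J7 and rose 6.43-fold (adjusted p = 0.00087). Elovl6, the elongase of palmitate, went the other way: it stood at 27.9, 18.5 and 28.8 CPM at J0 and 11.05, 9.21 and 6.39 CPM at J7 and fell 2.80-fold (-1.53 ± 0.26, adjusted p = 0.00283), and the desaturase gene Fads2 fell 1.62-fold (adjusted p = 0.0195, lost without J0_MLKL 1 or J0_MLKL 3). All 12 called differences from CTL in this list, of 15 tested, were towards a lower change in MLKL-/- cells, and so were all 13 called of 15 tested against RIPK3. Slc2a4, the gene of the insulin-responsive glucose transporter GLUT4, had 3 reads at J0 and 6.53, 8.11 and 12.3 CPM at J7, a ratio of 234-fold (95% interval 79.7 to 1138). Its log2 change was 7.65, 8.54 without J0_MLKL 1, 7.03 without J0_MLKL 2 and 6.72 without the 2 libraries. Npy1r, a neuropeptide Y receptor gene, stood at 4.53, 3.91 and 4.02 CPM at J0 and 0.927, 0.507 and 0.265 CPM at J7 and fell 7.28-fold (adjusted p = 0.00131), whereas the lactate receptor gene Hcar1 had 0 reads at J0 and was at least 91.7-fold higher.

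**Figure D4:**
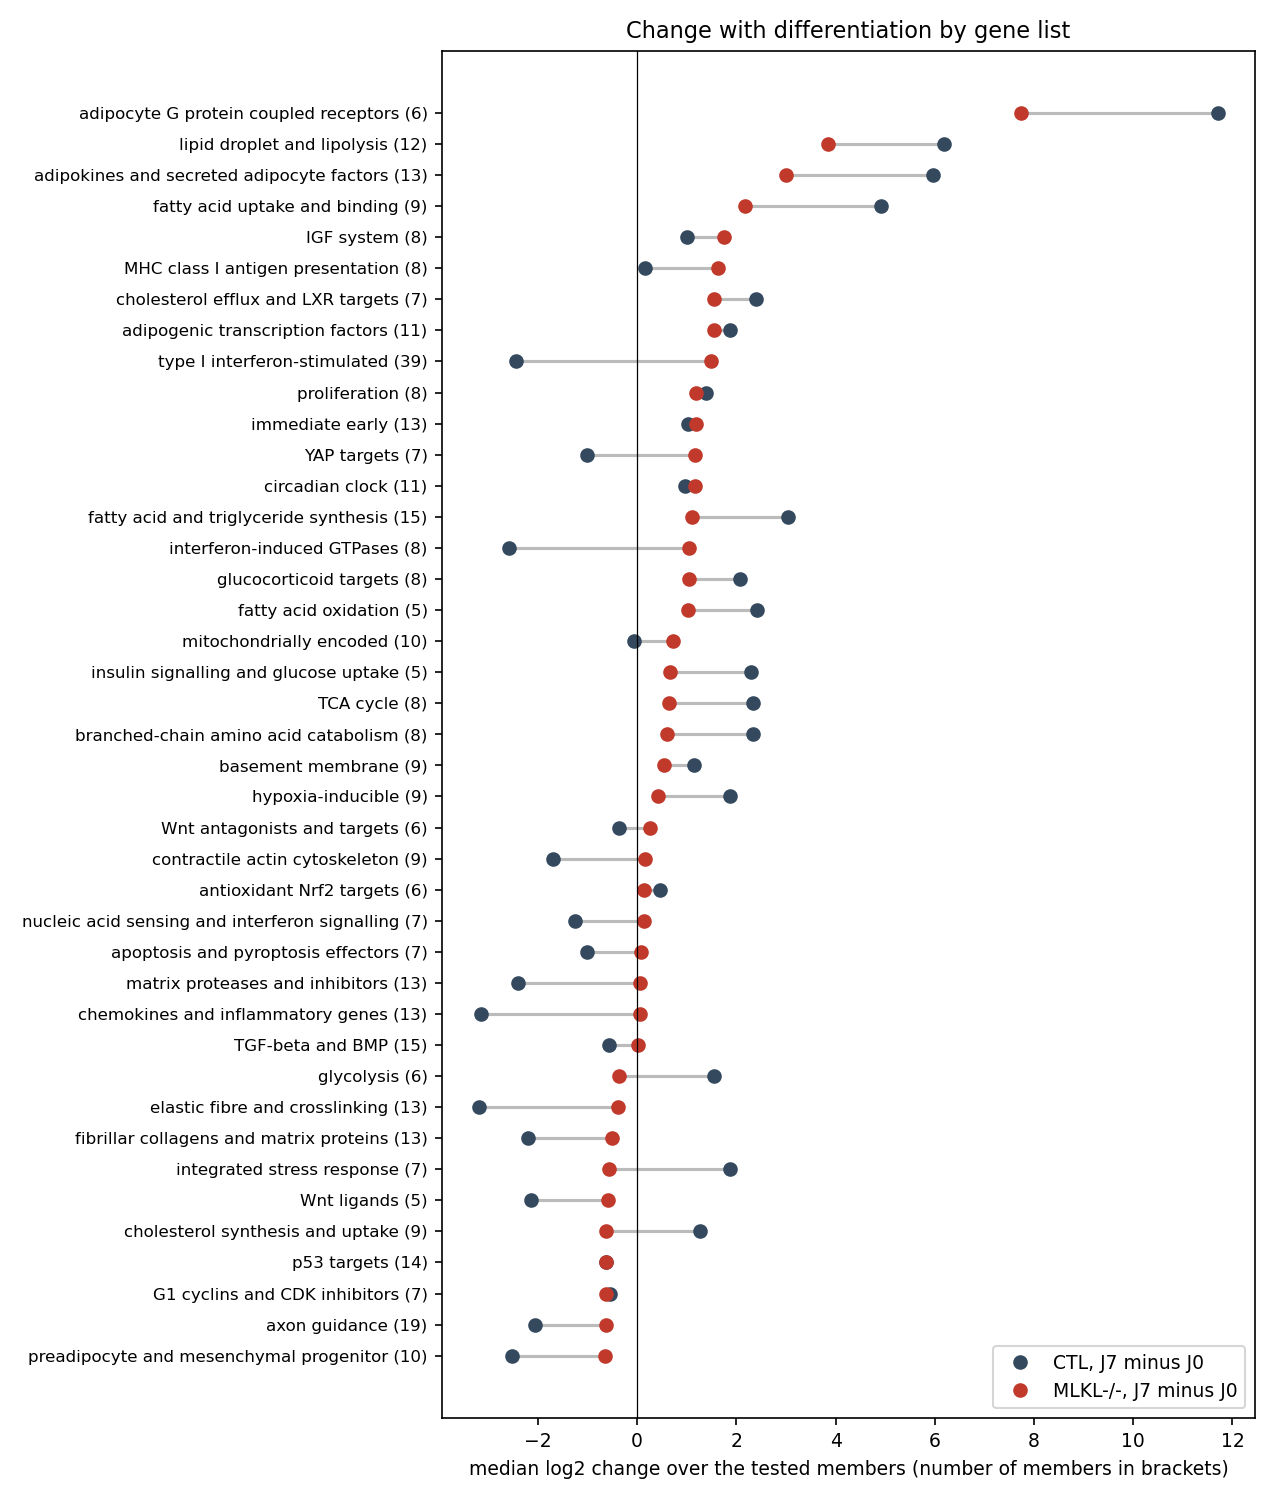
Median log2 change from J0 to J7 in MLKL-/- cells (red) and CTL (dark grey) over the members of each list with counts in all 12 libraries, the number of which is in brackets; lists with at least 5 such members are shown, and where members had 0 reads at J0, as in the receptor list, the median depends on the fitted change of those genes. Lipid lists lie right of 0 in both lines and further right in CTL, and the interferon-stimulated genes lie at 1.49 in MLKL-/- and -2.45 in CTL.

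Type I interferon-stimulated genes rose in MLKL-/- cells, while their fitted changes in the control line were mostly below 0. Of 58 members, 39 were tested, 34 rose and 0 fell, with a median log2 change of 1.48; 28 to 37 were called higher over the alternative settings. The list was a median log2 of 0.41 higher in J7_MLKL 3 than in the other J7 libraries, where 22 of 38 members were highest. The authors' deposited table lists 33 of the 53 members in the joined tables (62.3%) as higher, where 7.08% of all genes are. Ifit1, an RNA-binding antiviral protein gene, stood at 7.33, 7.26 and 7.49 CPM at J0 and 31.8, 41.3 and 31.3 CPM at J7, 3 J0 libraries and 3 J7 libraries each close together. It rose 4.67-fold (2.21 ± 0.15, adjusted p = 0.000144). In CTL the same gene began higher and ended lower, at 37.2, 30.4 and 39.1 CPM at J0 and 0.414, 0.284 and 0.261 at J7, and in RIPK3 at 6.18, 7.98 and 9.61 and 0.417, 0.347 and 0.529. The change in MLKL-/- cells differed from CTL by 8.99 ± 0.25 (adjusted p = 3.85e-10) and from RIPK3 by 6.25 ± 0.30 (adjusted p = 1.14e-08). All 39 members tested differed from CTL towards a higher change (38 with DESeq2 size factors, 39 without the 2 libraries), and for 38 the fitted change was above 0 in MLKL-/- and below 0 in CTL. Against RIPK3, 32 of 34 differed in that direction and 0 in the other.

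The enzymes and effectors of this response shared the pattern. Oas2, an oligoadenylate synthetase gene whose product activates RNA decay, stood at 1.08, 0.916 and 0.966 CPM at J0 and 11.01, 7.88 and 13.5 CPM at J7 and rose 11.2-fold (3.42 ± 0.26, adjusted p = 0.000207), and CTL stood between 16.1 and 18.97 CPM at J0 and between 0.0746 and 0.539 CPM at J7 (difference 9.50 ± 0.51, adjusted p = 3.03e-08, and 10.59 without J7_CTL 1). Its relative Oasl2 stood at 6.98, 6.16 and 5.14 CPM at J0 and 38.3, 26.9 and 52.6 CPM at J7 and rose 6.60-fold (2.66 ± 0.28, adjusted p = 0.000546). Rtp4, an interferon-induced chaperone gene, stood at 2.24, 2.47 and 1.78 CPM at J0 and 14.1, 11.1 and 28.3 CPM at J7 and rose 8.43-fold, while CTL stood between 12.5 and 13.6 CPM at J0 and between 0.261 and 0.487 CPM at J7. Every J7_MLKL library was above every J0_MLKL library for these 3 genes, and the third J7 library was the highest. Mx1, an antiviral GTPase gene, stood at 3.28, 2.89 and 4.52 CPM at J0 and 6.07, 16.6 and 8.02 CPM at J7 and rose 2.77-fold (adjusted p = 0.017), with the second J7 library the highest and no call without J0_MLKL 1 or without J0_MLKL 2. Rsad2, the gene of viperin, varied widely between libraries, at 0.0431, 0.141 and 0.541 CPM at J0 and 1.62, 4.70 and 0.681 CPM at J7, and its call (adjusted p = 0.0231) was lost without J0_MLKL 1, J0_MLKL 2 or J7_MLKL 2. Its log2 change was 2.18 without J7_MLKL 2 and 4.49 without J0_MLKL 3. Ifi203, a DNA-binding protein gene of the same response, showed little spread, at 30.8, 29.5 and 29.6 CPM at J0 and 74.9, 71.9 and 72.6 CPM at J7, and rose 2.45-fold against a fitted change below 0 in CTL (difference 3.47 ± 0.09, adjusted p = 2.73e-10). The other 3 genes with a printed promoter also rose: Oas1a 5.16-fold, Ifit3 4.77-fold and Ddx60 3.45-fold. The call of Ddx60 was lost without J0_MLKL 1, J0_MLKL 2, J7_MLKL 1 or J7_MLKL 2. Isg15, a ubiquitin-like modifier, stood at 6.60, 7.57 and 6.37 CPM at J0 and 17.6, 13.7 and 42.3 CPM at J7 and rose 3.67-fold (adjusted p = 0.00971). The third J7 library was the highest, and the log2 change of 1.82 was 1.15 without it and 1.21 without the 2 libraries, with a call in both.

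Several regulators and sensors in the list rose. Irf7, the factor that amplifies interferon production, stood at 5.30, 7.86 and 6.18 CPM at J0 and 20.9, 16.95 and 43.9 CPM at J7 and rose 4.28-fold (2.05 ± 0.39, adjusted p = 0.00418). Ifih1, the gene of the double-stranded RNA sensor MDA5, stood at 0.474, 0.282 and 0.348 CPM at J0 and 2.59, 3.13 and 1.89 CPM at J7 and rose 6.91-fold (adjusted p = 0.000754), and Zbp1, a nucleic acid sensor gene that can engage RIPK3, stood at 0.819, 1.51 and 1.16 CPM at J0 and 3.17, 2.72 and 4.54 CPM at J7 and rose 2.97-fold (adjusted p = 0.00521). In the separate list of nucleic acid sensing and interferon signalling, 7 of 22 members were tested, 0 rose and 1 fell: Ifnar2, a subunit gene of the interferon receptor, by 1.25-fold (adjusted p = 0.0189). That call was lost without J0_MLKL 1, J0_MLKL 2 or J7_MLKL 2. Ifnb1, the gene of interferon beta, is not listed for all 6 libraries, so its level is not known here. Among the interferon-stimulated genes tested, Oas1c, Ifi44, Bst2, Parp12 and Dtx3l were not called.

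**Figure D5:**
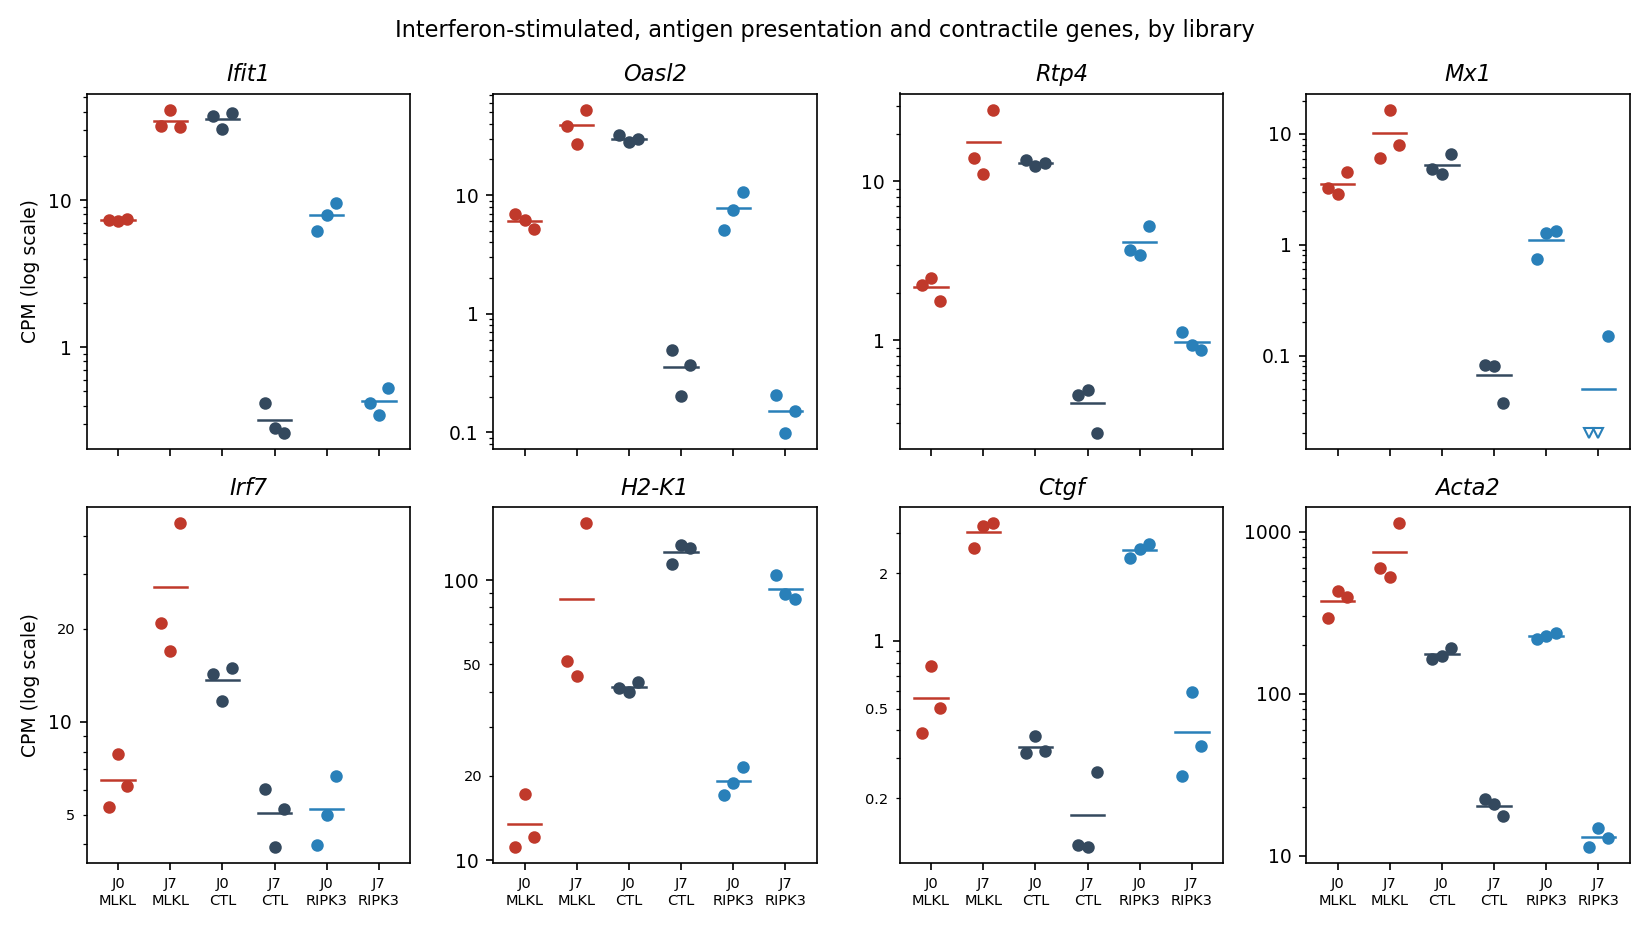
Level of 5 interferon-stimulated genes, the antigen presentation gene H2-K1, the YAP target Ctgf and smooth muscle actin Acta2 in every library (CPM, log scale), with group means as bars; red is MLKL-/-, dark grey CTL and blue RIPK3, open triangles at 0.02 are libraries with 0 reads, and Irf7 had no J7_RIPK3 counts. The J7 group lies above the J0 group in MLKL-/- and below it in CTL for Ifit1, Oasl2, Rtp4, Mx1, Irf7 and Acta2, while H2-K1 lies higher at J7 in all 3 lines.

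Of 17 interferon-induced GTPase genes, 7 were tested, 6 rose and 0 fell. Iigp1, an immunity-related GTPase gene, stood at 4.44, 4.47 and 4.64 CPM at J0 and 25.4, 28.7 and 21.2 CPM at J7 and rose 5.50-fold (2.44 ± 0.15, adjusted p = 0.000112). Gbp3, a guanylate-binding protein gene, stood at 4.74, 3.70 and 4.02 CPM at J0 and 17.3, 17.2 and 20.4 CPM at J7 and rose 4.46-fold (adjusted p = 0.000224). All 8 members with counts in both lines differed from CTL towards a higher change. Of 19 genes of MHC class I antigen presentation, 8 were tested, 7 rose and 0 fell. H2-K1, a classical class I heavy chain gene, stood at 11.2, 17.2 and 12.1 CPM at J0 and 51.3, 45.4 and 159.7 CPM at J7 and rose 6.44-fold (adjusted p = 0.00515), and its log2 change of 2.64 was 1.79 without J7_MLKL 3 and 1.99 without the 2 libraries. In CTL it stood between 39.96 and 43.2 CPM at J0 and between 115 and 133 CPM at J7, and the changes did not differ past the threshold (difference 1.03 ± 0.55, adjusted p = 0.125). Nlrc5, the transactivator of class I genes, stood at 1.72, 1.16 and 2.94 CPM at J0 and 6.95, 11.1 and 6.20 CPM at J7 and rose 4.12-fold (adjusted p = 0.00465). B2m, the light chain gene, stood at 499, 618 and 466 CPM at J0 and 630.1, 576 and 1145 CPM at J7 and was not called (adjusted p = 0.131). Class I genes resemble each other in sequence, so the split of reads among the H2 genes is uncertain, and the list was a median log2 of 0.95 higher in J7_MLKL 3 than in the other J7 libraries. Chemokines and inflammatory genes were mixed: of 37, 15 were tested, 5 rose and 5 fell, beside 35.8% and 30.9% over all genes tested. Cx3cl1, a membrane-bound chemokine gene, stood at 29.4, 28.4 and 25.3 CPM at J0 and 94.3, 95.03 and 94.6 CPM at J7 and rose 3.42-fold (adjusted p = 7.24e-05), against a fitted change of -1.32 in CTL. Cxcl5, a neutrophil chemokine gene, stood at 56.6, 60.6 and 57.3 CPM at J0 and 15.8, 14.2 and 14.3 CPM at J7 and fell 3.94-fold.

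Several progenitor genes fell, with smaller changes than in control cells. Of 18 preadipocyte and mesenchymal progenitor genes, 10 were tested, 0 rose and 5 fell, beside 35.8% and 30.9% over all genes tested. The list was a median log2 of 0.70 higher in J7_MLKL 3 and 0.41 higher in J0_MLKL 2 than in the other libraries of each group, and the part of this in the result was not tested. Thy1, a surface marker of mesenchymal progenitors, stood at 137, 179.9 and 138 CPM at J0 and 53.2, 50.3 and 77.7 CPM at J7 and fell 2.51-fold (-1.36 ± 0.21, adjusted p = 0.00185). CTL stood between 254 and 274 CPM at J0 and between 22.9 and 24.9 CPM at J7 (difference 2.07 ± 0.22, adjusted p = 8.79e-06). Gata2, a repressor of adipogenesis, stood at 45.2, 50.2 and 43.5 CPM at J0 and 19.4, 16.8 and 16.5 CPM at J7 and fell 2.64-fold (adjusted p = 0.000214). Pi16, a marker of fibroblast progenitors, stood at 11.8, 20.6 and 12.6 CPM at J0 and 8.89, 8.52 and 15.3 CPM at J7, overlapped between the groups and was not called (adjusted p = 0.219), while in CTL it stood between 40.4 and 43.5 CPM at J0 and between 0.365 and 1.04 CPM at J7 (difference 5.54 ± 0.49, adjusted p = 1.62e-06). The difference of Pi16 was 6.15 without J7_CTL 3. The difference from CTL was higher for 9 of 10 members, as it was from RIPK3, and with DESeq2 size factors the count was again 9 for both.

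Matrix genes split. Of 23 fibrillar collagen and matrix protein genes, 13 were tested, 2 rose and 6 fell, and 11 differed from CTL towards a higher change and 1 towards a lower. Col1a1, a chain of type I collagen, stood at 5447, 6062 and 5533 CPM at J0 and 3775, 3605 and 3717 CPM at J7 and fell 1.54-fold (-0.65 ± 0.09, adjusted p = 0.00111), whereas CTL changed by -2.33 (difference 1.69 ± 0.08, adjusted p = 1.63e-08). Fmod, the gene of the collagen-binding proteoglycan fibromodulin, stood at 315, 347 and 359.5 CPM at J0 and 57.4, 46.6 and 56.8 CPM at J7 and fell 6.32-fold (-2.70 ± 0.12, adjusted p = 4.93e-05). Lum, the gene of its relative lumican, stood at 30.4, 34.98 and 35.6 CPM at J0 and 74.3, 78.9 and 79.7 CPM at J7 and rose 2.29-fold (adjusted p = 0.000294), with a fitted change of -0.99 in CTL. Dcn, the decorin gene, stood at 852, 945 and 819.5 CPM at J0 and 1148, 1127 and 1052 CPM at J7 and rose 1.27-fold (adjusted p = 0.0168), a call lost without J0_MLKL 1, J0_MLKL 3, J7_MLKL 1 or J7_MLKL 2. Of 22 elastic fibre and crosslinking genes, 13 were tested, 2 rose and 7 fell; Mfap5, a microfibril protein gene, rose 2.16-fold against a fitted change of -2.16 in CTL. Of 22 basement membrane genes, 9 were tested, 5 rose and 1 fell. Col4a1, a chain of the basement membrane collagen, stood at 1134, 958 and 1149.7 CPM at J0 and 3266, 2977 and 1972 CPM at J7 and rose 2.53-fold (1.30 ± 0.20, adjusted p = 0.00184), and its change did not differ from CTL past the threshold (difference -0.42 ± 0.21, adjusted p = 0.0989).

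Proteases that cut the matrix were among the genes with the largest falls. Mmp13, a collagenase gene, stood at 16.3, 18.4 and 14.2 CPM at J0 and 1.62, 1.66 and 1.13 CPM at J7 and fell 11.2-fold (-3.50 ± 0.20, adjusted p = 8.22e-05), more than in CTL, where levels were between 3.59 and 5.32 at J0 and between 3.37 and 3.77 CPM at J7 (difference -3.20 ± 0.26, adjusted p = 8.90e-07). Mmp9, a gelatinase gene, stood at 79.4, 82.8 and 80.8 CPM at J0 and 10.8, 9.67 and 6.96 CPM at J7 and fell 8.92-fold (-3.18 ± 0.17, adjusted p = 6.70e-05), less than in CTL (difference 4.63 ± 0.57, adjusted p = 2.39e-05, but 7.28 without J7_CTL 1 and 4.02 without J7_CTL 3). The gene of the inhibitor TIMP4 (Timp4) rose from levels between 1.21 and 2.43 CPM at J0 to levels between 14.4 and 31.2 CPM at J7 (12.2-fold), and Plau, the urokinase gene, rose 2.18-fold against a fitted change of -3.46 in CTL. Over the list of 22, 13 were tested, 5 rose and 6 fell, beside 35.8% and 30.9% over all genes tested.

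The 12 protein-coding genes with the largest falls were Prokr1, Mfap4, Il13ra1, Trpm5, Mmp13, Fgd3, 5730559C18Rik, Ptpre, Mmp9, Chil1, Tnmd and Clec11a. Prokr1, a prokineticin receptor gene, stood at 28.9, 18.2 and 26.6 CPM at J0 and 1.62, 2.30 and 0.757 CPM at J7 and fell 16.02-fold (-4.03 ± 0.40, adjusted p = 0.000469). Il13ra1, a receptor subunit gene for interleukins 13 and 4, stood at 8.06, 6.87 and 8.23 CPM at J0 and 0.348, 0.967 and 0.416 CPM at J7 and fell 13.9-fold, more than in CTL (difference -2.17 ± 0.44, adjusted p = 0.000964). Ptpre, a tyrosine phosphatase gene, stood at 4.61, 4.47 and 5.99 CPM at J0 and 0.618, 0.645 and 0.378 CPM at J7 and fell 9.29-fold, also more than in CTL (difference -2.02 ± 0.36, adjusted p = 0.000422). Clec11a, a secreted growth factor gene, stood at 77.9, 94.6 and 75.9 CPM at J0 and 8.73, 8.34 and 14.7 CPM at J7 and fell 7.76-fold, with no difference from CTL past the threshold (0.25 ± 0.27, adjusted p = 0.43). Among the 12 with the largest rises were the adipocyte genes Adipoq, Cd36, Cfd, Cidec, Retn, Plin1, Adig, Mrap, Fabp4, Lgals12 and Aqp7.

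Contractile genes were mixed. Of 18, 9 were tested, 3 rose and 2 fell, beside 35.8% and 30.9% over all genes tested. Over the alternative settings 1 to 3 rose and 1 to 2 fell. From CTL, 8 differed towards a higher change (6 with DESeq2 size factors) and 0 lower, beside 39.0% and 26.3% over all genes. Acta2, smooth muscle actin, stood at 293, 429 and 394 CPM at J0 and 595, 528 and 1127 CPM at J7 and rose 2.03-fold (0.98 ± 0.32, adjusted p = 0.0291). The third J7 library was the highest, the log2 change was 0.55 without it, and the call was lost when any 1 of the 3 J0 libraries was left out. In CTL Acta2 stood between 163 and 191 CPM at J0 and between 17.6 and 22.3 CPM at J7 (difference 4.09 ± 0.37, adjusted p = 1.92e-06). Tpm1, a tropomyosin gene, stood at 1017, 1181 and 1037 CPM at J0 and 441, 393 and 539 CPM at J7 and fell 2.35-fold (adjusted p = 0.000676). Of 14 target genes of the coactivator YAP, 7 were tested, 4 rose and 1 fell, beside the same 35.8% and 30.9%. Cyr61, a matricellular protein gene, stood at 45.8, 45.6 and 47.2 CPM at J0 and 223, 235 and 213 CPM at J7 and rose 4.83-fold (2.24 ± 0.09, adjusted p = 4.38e-05), with a fitted change of -1.01 in CTL (difference 3.26 ± 0.10, adjusted p = 5.66e-10). Ctgf, of the same family, stood at 0.388, 0.775 and 0.502 CPM at J0 and 2.59, 3.22 and 3.33 CPM at J7 and rose 5.35-fold (adjusted p = 0.000916; difference from CTL 3.36 ± 0.49, adjusted p = 8.94e-05). In both genes every J7 library lay above every J0 library.

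Cholesterol synthesis and uptake genes fell or were not called. Of 25, 9 were tested, 0 rose and 6 fell, and all 9 differed from CTL, with a fitted change below 0 in MLKL-/- and above 0 in CTL. Hmgcs1, which makes HMG-CoA, stood at 86.4, 81.9 and 86.00 CPM at J0 and 55.9, 57.9 and 60.1 CPM at J7 and fell 1.46-fold (-0.58 ± 0.09, adjusted p = 0.0019). CTL stood between 84.3 and 89.97 CPM at J0 and between 424 and 450.1 CPM at J7 and RIPK3 between 141 and 148 CPM at J0 and between 472 and 497 CPM at J7 (differences -2.90 ± 0.09 and -2.46 ± 0.09, adjusted p = 5.66e-10 and 1.31e-09). Srebf2, which drives these genes, stood at 141, 126 and 131 CPM at J0 and 73.9, 75.03 and 70.5 CPM at J7 and fell 1.81-fold (adjusted p = 0.000474). Of 11 efflux and liver X receptor target genes, 7 were tested, 4 rose and 0 fell. Abcg1, a sterol exporter gene, stood at 0.647, 1.198 and 0.579 CPM at J0 and 7.38, 7.60 and 9.15 CPM at J7 and rose 9.78-fold (adjusted p = 0.000363).

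TCA cycle and hypoxia-inducible genes differed from control cells towards lower changes. Over all genes tested, 35.8% rose and 30.9% fell, and 39.0% and 26.3% differed from CTL towards a higher and a lower change. Of 26 TCA cycle and feeder genes, 8 were tested, 7 rose and 0 fell, with a median log2 change of 0.63 against 2.33 in CTL, and all 8 differences were lower. Pcx, pyruvate carboxylase, stood at 109, 123 and 107 CPM at J0 and 459, 526 and 633 CPM at J7 and rose 4.77-fold (2.23 ± 0.15, adjusted p = 0.000136; difference from CTL -1.98 ± 0.15). Of 18 hypoxia-inducible genes, 9 were tested and all 9 differences from CTL were lower. Egln3, a prolyl hydroxylase gene induced by hypoxia, stood at 10.4, 10.4 and 10.4 CPM at J0 and 7.77, 8.25 and 9.91 CPM at J7 and was not called (adjusted p = 0.125), while CTL stood between 19.9 and 20.2 CPM at J0 and between 421 and 455 CPM at J7 (difference -4.73 ± 0.13, adjusted p = 2.73e-10). Of 25 integrated stress response genes, 7 were tested, 2 rose and 5 fell. Psat1, an enzyme of serine synthesis, stood at 209, 242 and 204 CPM at J0 and 107, 109.7 and 153 CPM at J7 and fell 1.77-fold (adjusted p = 0.00442), against a fitted change of 2.58 in CTL (difference -3.43 ± 0.18, adjusted p = 2.57e-08). Slc2a1, the basal glucose transporter GLUT1, stood at 97.96, 109 and 92.8 CPM at J0 and 55.2, 51.5 and 55.9 CPM at J7 and fell 1.85-fold (adjusted p = 0.000533). Of 28 mitochondrially encoded genes, 11 were tested, 8 rose and 0 fell, among them mt-Nd1, a complex I subunit gene, at 2464, 2444 and 2395 CPM at J0 and 4373, 4496 and 4653 CPM at J7 (1.85-fold, adjusted p = 0.000446). Of 10 of them tested against CTL, 6 differed towards a higher change and 1 towards a lower.

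Most tested p53 target genes fell and most tested proliferation genes rose. Of 26 p53 target genes, 14 were tested, 2 rose and 10 fell, with a median log2 change of -0.64, beside 35.8% higher and 30.9% lower over all genes tested. Against CTL, 4 of the 14 differed higher and 4 lower, beside 39.0% and 26.3% over all genes. In that fit the median change of the list was -0.63 in both lines. Cdkn1a, the inhibitor p21 of cyclin-dependent kinases, stood at 186, 232 and 181 CPM at J0 and 63.5, 54.4 and 91.1 CPM at J7 and fell 2.85-fold (-1.55 ± 0.22, adjusted p = 0.00141), more than in CTL (difference -0.99 ± 0.23, adjusted p = 0.00226). Plk2, a stress-responsive kinase gene, stood at 143, 141 and 143 CPM at J0 and 45.97, 44.3 and 44.7 CPM at J7 and fell 3.15-fold (-1.69 ± 0.08, adjusted p = 4.93e-05). Mdm2, which degrades p53, stood at 2586, 2272 and 2568 CPM at J0 and 2406, 2516 and 1613 CPM at J7 and was not called (adjusted p = 0.308). Of 35 proliferation genes, 8 were tested, 7 rose and 0 fell. They rose in CTL as well, with a median log2 change of 1.39 against 1.19 in MLKL-/-, and 0 differed from CTL higher and 2 lower. In RIPK3 the median was -0.35 against 1.26 in MLKL-/-, with 6 differences higher and 0 lower. Cdc6, which loads the replicative helicase, stood at 2.76, 2.43 and 2.09 CPM at J0 and 6.80, 7.46 and 6.17 CPM at J7 and rose 2.80-fold (adjusted p = 0.000916), and Rrm2, a ribonucleotide reductase subunit gene, stood at 18.3, 18.7 and 17.6 CPM at J0 and 27.5, 28.4 and 28.2 CPM at J7 and rose 1.54-fold (adjusted p = 0.00262). Ccnd1, the cyclin of early G1, stood at 279, 219 and 287 CPM at J0 and 172, 158 and 87.7 CPM at J7 and fell 1.88-fold (adjusted p = 0.0155), with the third J7 library the lowest and no call without J0_MLKL 3.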

How the data were processed

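RNA sequencing was read from the authors' deposited tables, 1 per pairwise comparison, each holding only genes with an adjusted p under 0.05. Reads were aligned with HISAT2 to mm10 and counted with featureCounts 1.5.0-p3 after FastQC 0.11.9, with DESeq2 also named, per the submitters' processing notes; strand handling is not given in the sources used here, so overlapping genes cannot be told apart. The deposited raw counts per gene, the deposited normalised counts (a signal scaled with a size factor), the deposited FPKM values, the deposited log2 fold changes and the deposited p-values were joined over 7 tables to 15194 genes. Of 88950 counts present in more than 1 table, 0 differed. Library totals were recovered from the authors' FPKM, gene length and count, and CPM is the count per 1000000 of that total; no unassigned reads are listed.

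Genes with counts in all 6 MLKL libraries were tested with edgeR 4.0.16 (R 4.3.3, limma 3.58.1) by quasi-likelihood, after filterByExpr and TMM scaling on recovered totals; differences between lines were contrasts in a model of 4 groups. The pipeline was tested on simulated data. Adjusted p-values (Benjamini-Hochberg) under 0.05 are calls, values after ± are standard errors, n is 3 per group, and folds are pooled reads over pooled totals. A group with 0 reads is set to a floor of 3 reads over the group; intervals (exact, 95%) and floors cover counting error only. The labels do not say that replicates are separate cultures, so p-values measure only the spread between libraries, which may be technical.

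Alternatives were other scalings, filters, DESeq2 1.42.0, a replicate block and leaving out libraries. Libraries were compared before averaging and none was a copy of another. The members, gene lists and naming rule were chosen with earlier results of these data known. Named were the targeted genes, a fixed set, the 12 highest and 12 lowest protein-coding genes called without overlap and with at least 5 CPM, up to 5 called members of each list, and the 6 highest and 6 lowest differences with up to 3 per list; other genes in the text were chosen after their values were seen. Some genes that met the rule are not reported here.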

Additional observations from a re-analysis of the deposited data

Results flagged for a closer look

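The genes below drew attention because the log2 change from J0 to J7 differed between MLKL-/- cells and another line in edgeR's quasi-likelihood test of that difference. Values are the change in MLKL-/- cells minus the change in the other line, and the MLKL libraries are the same in both comparisons.

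Against CTL, the 6 highest differences by the naming rule were those of Oas2 (9.50), Oasl2 (9.03), Ifit1 (8.99), Rtp4 (8.03), Vip (7.92) and Mx1 (7.69). Of these, 5 are interferon-stimulated genes. Vip, the gene of vasoactive intestinal peptide, stood at 0.819, 0.458 and 0.811 CPM at J0 and 6.57, 5.85 and 9.87 CPM at J7 and rose 11.02-fold, against a fitted change of -4.52 in CTL. The 6 lowest were Mettl7b (-8.19), Cmbl (-7.07), Cyb561 (-6.87), Mgll (-6.30), Selenbp1 (-6.07) and Fam107a (-5.47). Cmbl, a hydrolase gene, stood at 1.64, 2.11 and 1.31 CPM at J0 and 1.16, 1.11 and 2.99 CPM at J7 in MLKL-/- cells and was not called (adjusted p = 0.955 in edgeR's test), against a fitted change of 7.11 in CTL. Leaving out 1 library ended 2 of these calls: Mettl7b was -6.27 (adjusted p = 0.183 in edgeR's test) without J0_MLKL 2, and Fam107a was -3.95 (adjusted p = 0.0853) without J0_MLKL 3. With the call kept, Fam107a was -6.08 without J0_MLKL 2, Vip 6.96 without J0_CTL 2, and Cmbl and Selenbp1 -7.72 and -6.76 without J7_MLKL 3. Oas2 was 10.59 without J7_CTL 1. Mettl7b and Cyb561 rose in MLKL-/- cells as well, 31.2-fold and 6.05-fold, and Selenbp1, a selenium-binding protein gene, rose 4.92-fold. The log2 change of Mettl7b from J0 to J7 was 4.84, 6.70 without J0_MLKL 2, 4.25 without J7_MLKL 3 and 6.13 without both, and that of Selenbp1 was 2.24, 1.54 without J7_MLKL 3 and 1.61 without J7_MLKL 3 and J0_MLKL 2.

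Among the fixed set of named genes, 5 adipocyte genes had called differences from CTL below 0: Pparg (-2.45), Cebpa (-2.93), Lpl (-2.76), Scd1 (-4.20) and Fasn (-1.73). Adipoq, Fabp4, Cd36, Plin1, Cidec and Slc2a4 of the same set had no called difference from CTL. Of the 14 adipocyte markers, 5 differed from CTL towards a lower change and 0 towards a higher, beside 26.3% and 39.0% over all genes. Cdkn1a was also lower (-0.99). Irf7 (3.47), Thy1 (2.07), Col1a1 (1.69) and Acta2 (4.09) were higher.

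Against RIPK3, the 6 highest were Oas2 (8.31), Oasl2 (8.15), Serpina3g (7.25), Fam135b (7.01), Il1rl1 (6.85) and Cldn19 (6.44). Serpina3g, a serine protease inhibitor gene, stood at 10.95, 15.4 and 11.4 CPM at J0 and 94.9, 81.5 and 142 CPM at J7, 8.45-fold higher at J7 with the third library the highest, against a fitted change of -4.13 in RIPK3. Fam135b, Il1rl1 and Cldn19 fell in MLKL-/- cells by log2 -1.39 ± 0.27, -1.75 ± 0.17 and -2.40 ± 0.14, less than in RIPK3. The 6 lowest were Mgll (-7.52), Cmbl (-7.07), Rbm47 (-7.00), Slc36a2 (-6.69), Camp (-6.41) and Nat8l (-6.41). The call of Rbm47 was lost without J0_MLKL 1 (-5.18, adjusted p = 1 in edgeR's test). With the call kept, Camp ranged from -8.07 without J0_RIPK3 3 to -5.78 without J0_MLKL 2, Cldn19 from 5.84 without J7_RIPK3 3 to 8.54 without J7_RIPK3 1, and Fam135b was 6.33 without J7_RIPK3 3. Oas2 was 9.43 without J7_RIPK3 1, and Cmbl -7.71 without J7_MLKL 3. Nat8l, which makes N-acetylaspartate, rose 17.7-fold in MLKL-/- cells.

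The remaining differences from RIPK3 were Pparg (-1.91), Cebpa (-2.15), Lpl (-3.09), Scd1 (-4.33), Fasn (-2.08), Slc2a4 (-4.36) and Cdkn1a (-1.42) on the lower side. On the higher side were Ifit1 (6.25), Thy1 (2.33), Col1a1 (2.18), Acta2 (4.97) and Ripk3 itself (0.70). The call of Ripk3 was lost when any 1 of the libraries J0_MLKL 1, J0_MLKL 3, J7_MLKL 3 and the 6 RIPK3 libraries was left out (0.45 to 0.68), and that of Slc2a4 without J0_MLKL 1 (-3.46) or without J0_MLKL 3 (-4.36).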

How the results depend on the processing

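With 2051 genes called in J7_MLKL against J0_MLKL by edgeR (2140 at an unadjusted p under 0.05), counts were within 1.5 times under other scalings, no filter on low counts, a mean of at least 50 counts, DESeq2 and without both libraries that stood apart (1678 to 2546). Restricted to an absolute log2 change over 1, 1173 genes were called, 700 higher and 473 lower, and 503 differences from CTL were lower. Leaving out 1 library at a time gave 1785 to 2284 calls (961 to 1190 higher, 821 to 1094 lower) in the comparison within MLKL-/- cells, and 1868 to 2179 differences from CTL and 1892 to 2142 from RIPK3. In the difference from RIPK3 the split was 1233 to 761 with the authors' size factors and 989 to 1030 with DESeq2 size factors, and that from CTL 963 to 1012 with the latter. Of the 220 named genes, 67 lost a call in at least 1 alternative, 53 of them with the limit on the log2 change added, and 0 changed direction; of the 24 highest and lowest differences between lines, 3 lost a call. Among 84 list counts, 48 moved by over 1.5 times somewhere.

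Replicate numbers are shared between groups in the labels, and the deviations of same-numbered libraries from their group means correlated at 0.46, -0.69 and -0.59. J7_MLKL 3 and J0_MLKL 2 stood apart in their groups, so these coefficients cannot tell whether the numbers pair the libraries. With the replicate block, 1734 genes were called (928 higher, 806 lower), 1927 differed from CTL (1148 higher, 779 lower) and 1913 from RIPK3 (1092 higher, 821 lower). J0_MLKL 2 correlated best with J7_MLKL 3, at 0.74.

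Library totals limit genes with few reads, where a call can rest on 1 library. Genes outside the authors' lists were not analysed here, so a gene without a call in any table is missing from every count.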

Other observations

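Most tested clock genes rose in the MLKL-/- cells. Of 18 circadian genes, 12 were tested, 10 rose and 1 fell, beside 35.8% and 30.9% over all genes tested. The list rose in the other lines too. Its median log2 change was 1.16 in MLKL-/- and 0.97 in CTL over 11 genes, and 1.27 in MLKL-/- and 1.30 in RIPK3 over 12. From CTL, 2 differed towards a higher change and 6 towards a lower, and from RIPK3 1 and 7. Nr1d1, the repressor REV-ERB alpha, stood at 20.4, 20.4 and 18.7 CPM at J0 and 76.8, 65.3 and 72.9 CPM at J7 and rose 3.64-fold (adjusted p = 8.15e-05 in edgeR's test), with no overlap between the groups. Dbp, a clock output factor, rose 2.72-fold, and the period genes Per1 and Per3 rose 2.27-fold and 2.62-fold. Arntl, the activator BMAL1 that REV-ERB alpha represses, stood at 17.9, 13.8 and 18.6 CPM at J0 and 4.71, 6.63 and 3.86 CPM at J7 and fell 3.34-fold, while its fitted change in CTL was 0.35 (difference -2.10 ± 0.25, adjusted p = 1.63e-05).

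Axon guidance genes fell more often than they rose: of 45, 19 were tested, 1 rose and 10 fell, beside 35.8% and 30.9% over all genes tested. Over the alternative settings 0 to 1 rose and 6 to 15 fell. Efnb1, a membrane ligand of Eph receptors, stood at 137, 145 and 135 CPM at J0 and 37.4, 38.9 and 31.8 CPM at J7 and fell 3.89-fold (adjusted p = 6.34e-05 in edgeR's test). Its relative Efnb2 fell 3.53-fold, the semaphorin receptor gene Nrp2 2.70-fold and Sema6a 2.78-fold, while Sema6b rose 3.14-fold. Of the 19, 11 differed from CTL towards a higher change and 1 towards a lower, beside 39.0% and 26.3% over all genes.

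In the list of insulin-like growth factor genes, 8 of 16 were tested, 6 rose and 0 fell. Over all genes tested 35.8% rose and 30.9% fell, the background also for the immediate early and glucocorticoid-induced lists that follow. Igfbp3, a carrier of these factors, stood at 1.47, 1.27 and 1.97 CPM at J0 and 5.99, 8.84 and 6.88 CPM at J7 and rose 4.57-fold, and Pappa2, a protease that cleaves such carriers, rose 4.52-fold. Igfbp7 stood at 230.4, 299 and 229 CPM at J0 and 369.6, 371 and 589 CPM at J7 and rose 1.76-fold (adjusted p = 0.0178 in edgeR's test), a call lost without J0_MLKL 1 or without J0_MLKL 3. Of 27 immediate early genes, 13 were tested, 9 rose and 3 fell: Zfp36, which destabilises cytokine mRNAs, rose 3.75-fold and Fos rose 3.16-fold, whereas Klf4 fell 3.20-fold. Of 15 glucocorticoid-induced genes, 8 were tested, 5 rose and 1 fell, and Fkbp5, a co-chaperone of the glucocorticoid receptor, stood at 69.6, 69.9 and 62.5 CPM at J0 and 176, 171 and 173 CPM at J7 and rose 2.58-fold (adjusted p = 0.000118).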
